A study of Gallus gallus with 6 samples.

Results

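Central carbon metabolism was examined in ICP1, an immortalized chicken preadipocyte line, through the transcripts of enzymes of glycolysis, of pyruvate entry and the citrate cycle, and of the pentose phosphate pathway. Members were the rows of the deposited gene table whose gene name was on a list of 47 enzymes. By exact name 40 of the 47 were found among the 18495 genes of the table: 17 in glycolysis, 19 in pyruvate entry and the citrate cycle and 4 in the pentose phosphate pathway. KLF2 wells, 3 in number, received the plasmid pCMV-myc-KLF2, which carries KLF2, a Krüppel-like zinc-finger transcription factor, in a vector named for the CMV promoter. EV wells, also 3, received the empty pCMV-myc vector with the same transfection reagent. RNA was taken 48 h later and poly(A) RNA was sequenced. Each library is 1 well of a single cell line, the sources used here do not give the share of cells that took up plasmid, and p-values measure only the spread between wells.

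Glycolysis splits glucose into pyruvate in the cytosol. Hexokinase, phosphofructokinase and pyruvate kinase run its near-irreversible steps, and lactate dehydrogenase turns pyruvate into lactate. The pyruvate dehydrogenase complex carries pyruvate into the mitochondrion's citrate cycle as acetyl-CoA, under the restraint of the PDK kinases. The pentose phosphate pathway branches off at glucose phosphate and yields NADPH and ribose phosphate, and fatty acid synthesis uses NADPH. Several steps are served by isoforms from separate genes, whose balance differs between tissues. LDHA and HK2 are typical of proliferating cells, LDHB of oxidative tissue, PFKM of muscle and ENO2 of neurons.

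The libraries held 13255169 to 14168807 assigned reads. KLF2 itself had 1052, 1618 and 2412 normalized counts in KLF2 1 to 3, against 1093, 675 and 697 in EV 1 to 3, so EV 1 lay above KLF2 1. Whether the plasmid acted in well KLF2 1 is not known, and this holds for every result below that rests on that well. Its difference was 1.00 (95% interval 0.28 to 1.72, SE 0.31) on the log2 scale (adjusted p = 0.962, limma with Benjamini-Hochberg adjustment). The label was checked against marker lists. VIM, COL1A1, COL1A2, DCN and PDGFRA, markers of fibroblast-like cells, were abundant in every library, the lowest value being 6965 normalized counts of PDGFRA in KLF2 3. DLK1, a classical preadipocyte marker, reached at most 5.18 normalized counts and CD34, another, at most 8.15, so these defining markers were near 0. On the same list ENG also reached at most 5.18 normalized counts, LUM ran from 33.1 to 52.8 and 1 S100A10 row from 26.4 to 161. The 16 rows of the preadipocyte and fibroblast list summed to 61520 to 70671 in KLF2 libraries and 67849 to 74088 in EV libraries, in normalized counts per kb. Of these rows 2, COL1A1 and the other S100A10 row, were lower in KLF2 libraries at an unadjusted p under 0.05 in limma, beside 2.11% of all genes tested. Their adjusted p was 0.962. The adipocyte list summed to 29.6 to 48.8 in KLF2 libraries and 48.2 to 57.5 in EV libraries. All 5 of its rows had fold changes below 0. ADIPOQ, near 0, had 1.02, 1.04 and 0.955 normalized counts in KLF2 1 to 3, against 3.94, 7.14 and 3.82 in EV 1 to 3. Its groups did not overlap, beside 6.65% of all genes tested. limma gave ADIPOQ an unadjusted p of 0.030 (Benjamini-Hochberg adjusted p = 0.962). The muscle list summed to 1.78 to 15.5 in KLF2 libraries and 12.1 to 14.3 in EV libraries, and the neural list to 55.2 to 138 in KLF2 libraries and 67.0 to 99.0 in EV libraries. The leukocyte list summed to 372 to 495 in KLF2 libraries and 362 to 497 in EV libraries, with SPI1, a myeloid transcription factor, at 813, 995 and 1093 normalized counts in KLF2 1 to 3, against 980.1, 751 and 1068 in EV 1 to 3 and its other 4 genes at 23.4 to 90.8. The part of these marker levels in the results was not tested. Ribosomal RNA genes took 0.131% of reads in KLF2 3 and 0.350% in EV 1, against 0.00162% to 0.0215% in the other libraries. The first principal component, over genes averaging 20 or more normalized counts, held 67.1% of the variance, with KLF2 1 at -42.5 and KLF2 3 and EV 1 at 27.1 and 38.5. In bulk RNA, fewer cells of a type and less RNA per cell cannot be told apart.

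None of the 40 enzymes passed the test between KLF2 and EV wells. In limma, with Benjamini-Hochberg adjustment over all genes tested, 0 of 40 passed an adjusted p of 0.05 (adjusted p from 0.962 to 0.993), where 0.00% of the 16765 genes tested did. At an unadjusted p under 0.05 there were also 0 of 40, beside 2.11% of all genes tested (0.913% higher and 1.20% lower in KLF2 libraries). edgeR and DESeq2, run on the reads recovered from the normalized counts, each called 0 of 40 members and 0 genes, with 0 members at an unadjusted p under 0.05 beside 154 and 173 genes. The authors' deposited table calls 0 of 40 as well, and its lowest unadjusted p among members is 0.156, for LDHB. Its values are nearly those of DESeq2 here, so it is not a separate check. Log2 fold changes, KLF2 minus EV, ran from -0.58 in PFKM to 0.24 in LDHB with a median of -0.034, beside a median of -0.006 over all genes tested. The fold change was above 0 for 18 members and below 0 for 22. These counts and the sign of the median depended on which wells were kept. Without EV 1 the counts were 28 and 12 (median 0.054), and without KLF2 1 they were 23 and 17 (median 0.023). Without both EV 1 and KLF2 3 they were again 18 and 22 (median -0.017). The intervals, taken member by member, limit the mean difference between the groups of wells. They do not limit the change in cells that took up plasmid. For 37 of 40 members the 95% interval lay within a 2-fold change in either direction, and for 29 within 1.5-fold. The exceptions at 2-fold were PFKM, ALDOC and IDH2. PFKM rested on 8 to 23 reads per library, and each other member on at least 142.

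**Figure D1:**
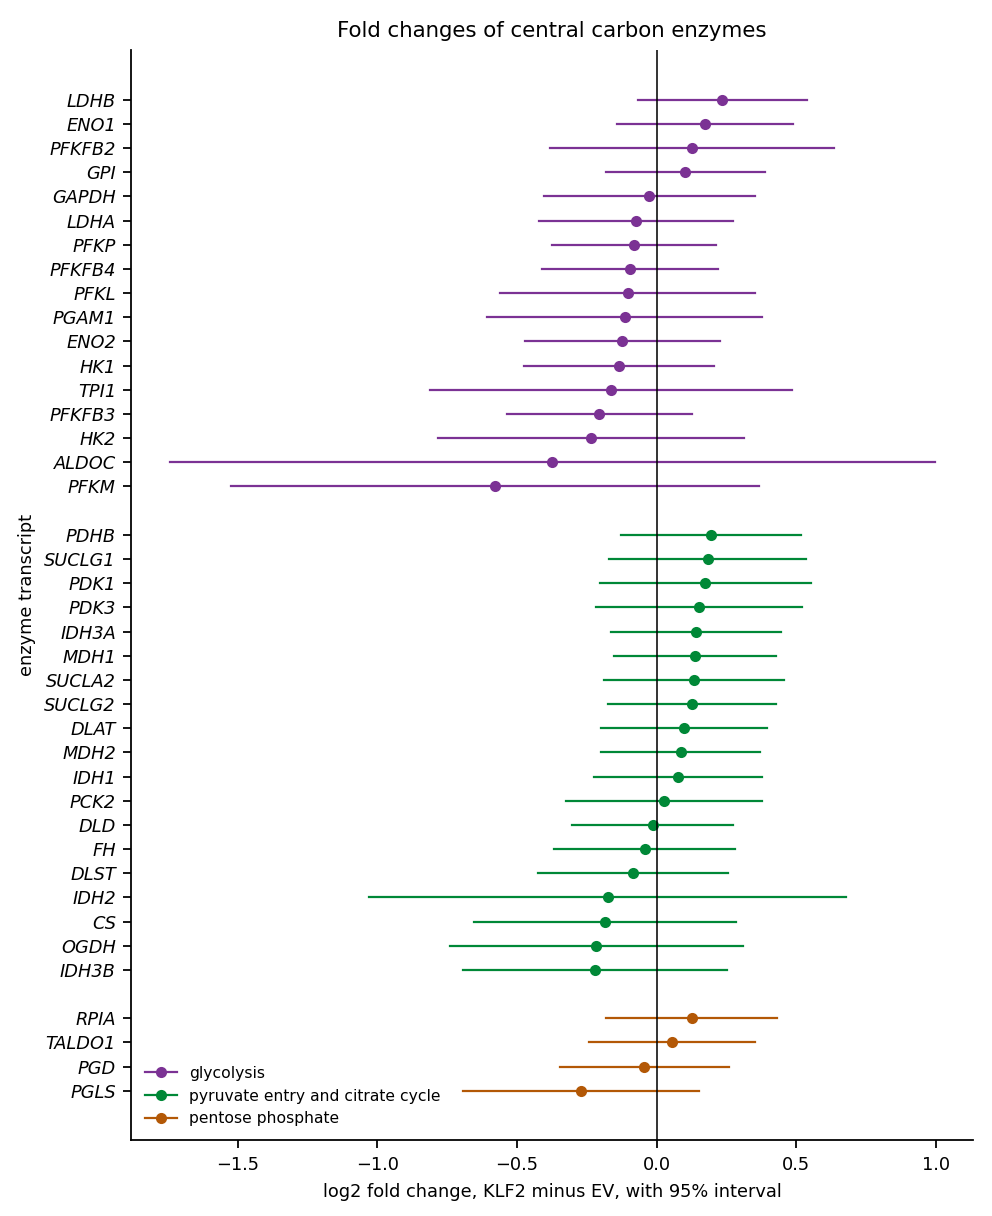
Log2 fold change of each of 40 enzyme transcripts on the log2(normalized count + 1) scale, KLF2 minus EV, as a point with its 95% interval (limma, 3 libraries a group), coloured by pathway and sorted within it. Every interval spans 0, and the widest are those of ALDOC, PFKM and IDH2.

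The members ranged from the second most abundant gene of the table to rank 11487. Scaled by gene length, their median level was 603 normalized counts per kb, beside 48.4 for all genes tested, with 5 of 40 among the 100 highest and 18 among the 1000 highest of the 18495 genes. Of the summed length-scaled level of all genes, the 17 glycolytic members took 2.55, 2.50 and 3.11% in KLF2 1 to 3, against 2.99, 2.69 and 2.54% in EV 1 to 3. The citrate cycle members took 0.347, 0.324 and 0.315% in KLF2 1 to 3, against 0.318, 0.325 and 0.313% in EV 1 to 3, and the pentose phosphate members took 0.0855, 0.0804 and 0.0884% in KLF2 1 to 3, against 0.0882, 0.0875 and 0.0792% in EV 1 to 3. The glycolytic members together outweighed the others in each well. Their share overlapped between groups and was highest in KLF2 3 and EV 1.

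GAPDH, which oxidizes glyceraldehyde phosphate, was the highest member at 47819 normalized counts per kb, rank 2 of all genes, and lies on chromosome 1 from 76900598 to 76906236 in GRCg7b. LDHA, which makes lactate from pyruvate, followed at 27227 per kb (rank 4, chromosome 5 from 12163471 to 12170275), and ENO1, the enolase of most tissues, at 19765 per kb (rank 12, chromosome 21 from 3211185 to 3223584). Over the 6 libraries GAPDH ran from 40826 to 61289 per kb, above the whole range of LDHA at 21384 to 33136, while LDHA and ENO1 (16890 to 24292) overlapped. PGAM1, phosphoglycerate mutase, ran from 5597 to 9900 per kb and lay below ENO1 in each library. ALDOC (3078 to 11299), GPI (3852 to 4697), LDHB (3498 to 4984) and TPI1 (2503 to 5617) came next, and their ranges overlapped with each other. The committed steps stood lower: PFKP at 1355 per kb, HK1 at 616 and HK2 at 431. The PFKFB enzymes, which set the level of the bisphosphate that activates phosphofructokinase, lay between 34.6 per kb in PFKFB2 and 108 in PFKFB3.

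In the citrate cycle group IDH1, the cytosolic NADP-dependent isocitrate dehydrogenase, was highest at 2693 per kb (range 2289 to 2978, chromosome 7 from 13412199 to 13425837). MDH1, the cytosolic malate dehydrogenase, followed at 1630 per kb (range 1420 to 1771), below IDH1 in each library. PDHB, DLD, OGDH, MDH2 and DLAT had means from 939 to 1321 per kb. Neighbours in this order overlapped in range, while PDHB lay above DLAT throughout. PDK3, at 165, was the lowest of this group. Of the pentose phosphate members matched by exact name PGD, the dehydrogenase of the oxidative branch, was highest at 1872 per kb, followed by TALDO1 (transaldolase) at 1374, RPIA (ribose phosphate isomerase) at 369 and PGLS (lactonase) at 221, each below the one before in each library.

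**Figure D2:**
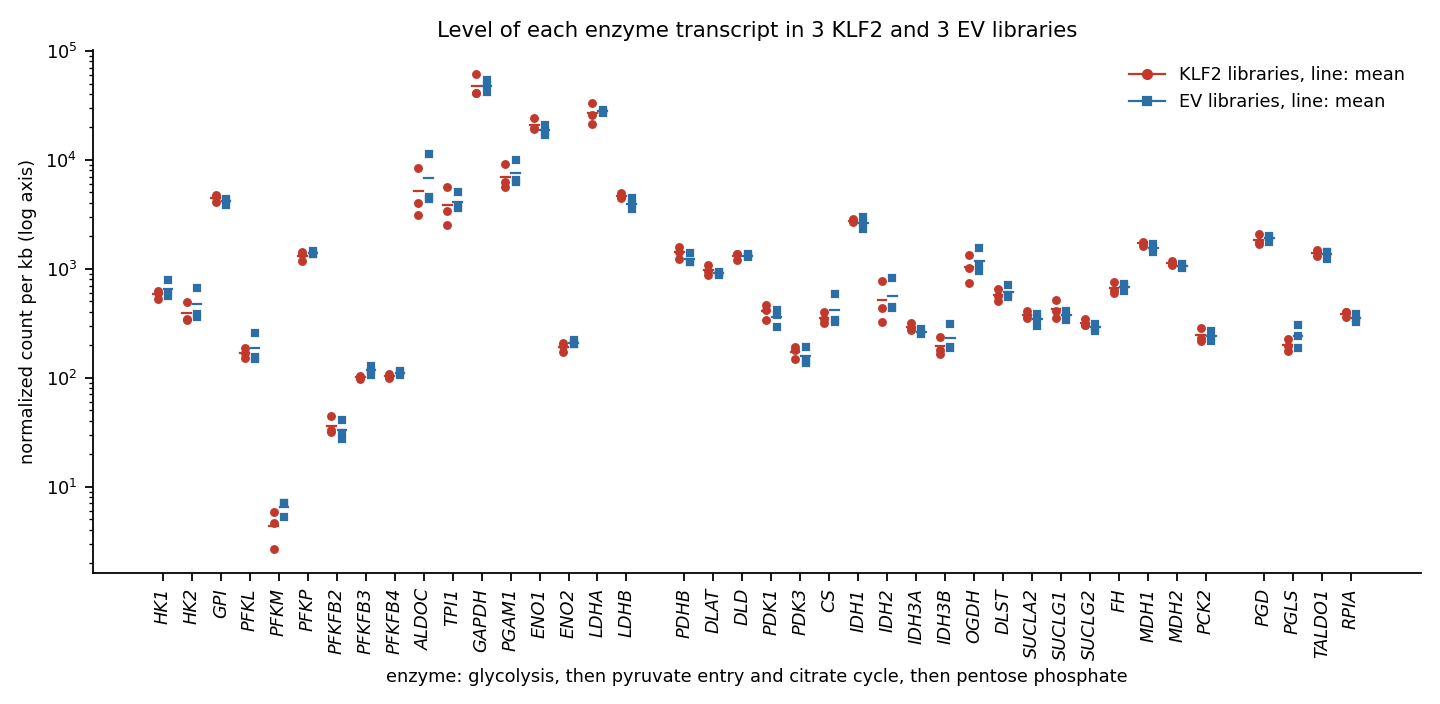
Level of each enzyme transcript in normalized counts per kb of gene length on a log axis, with KLF2 libraries (circles) left of EV libraries (squares) and a line at each group mean. Mean levels over the 6 libraries span from 5.43 in PFKM to 47819 in GAPDH, and the groups overlap in all members but PFKFB3.

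Of the 7 listed names without an exact match, 4 had a row under another name. The table's PKLR row, for which the RefSeq gene table of GRCg7b lists PKM as a synonym, had 22334, 24098 and 33076 normalized counts in KLF2 1 to 3, against 35757, 25544 and 24990 in EV 1 to 3 (log2 fold change -0.12, 95% interval -0.52 to 0.28, SE 0.18). KLF2 3 and EV 1 were its highest wells. By its mean of 9042 per kb (rank 30) this pyruvate kinase, the last step of glycolysis, stood between ENO1 and PGAM1. The PGK2 row, with PGK1 as a synonym, had 28664, 29369 and 31930 normalized counts in KLF2 1 to 3, against 30661, 28117 and 26202 in EV 1 to 3 (log2 fold change 0.084, 95% interval -0.20 to 0.37, SE 0.13). PDHA2, with PDHA1 as a synonym, and TKTL1, which the table describes as transketolase, had log2 fold changes of 0.031 and 0.073, at 590.5 and 3663 normalized counts per kb. The TKTL1 row (3404 to 4002 per kb) lay above PGD in each library. Of these 4 rows 0 had an unadjusted p under 0.05, beside 2.11% of all genes tested, and their groups overlapped.

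For ALDOA the table has 2 unnamed rows on unplaced scaffolds whose descriptions name rat and rabbit ALDOA as the matching protein. The longer, ENSGALG00010000476, had 220.4, 286 and 239.8 normalized counts in KLF2 1 to 3, against 462, 289 and 329 in EV 1 to 3. Its groups did not overlap, beside 6.65% of all genes tested, but KLF2 2 at 286 lay just below EV 2 at 289. The log2 fold change was -0.51 (95% interval -0.98 to -0.045, SE 0.22), and limma gave an unadjusted p of 0.034 (Benjamini-Hochberg adjusted p = 0.962). Of the 46 rows, members and rows under another name together, it was the 1 with an unadjusted p under 0.05, beside 2.11% of all genes tested. The other, ENSGALG00010000081, had 33.5, 91.1 and 165 normalized counts in KLF2 1 to 3, against 272, 116 and 115 in EV 1 to 3 (log2 fold change -0.94, 95% interval -2.38 to 0.51, SE 0.61). KLF2 wells lay lower in the longer row, and in the shorter row KLF2 3 lay above EV 2 and EV 3. Reads can be split between near-identical copies, so the level of each of these rows is uncertain. IDH3G and PC were not analysed here.

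Among the glycolytic members the fold change was above 0 for 4 and below 0 for 13 (median log2 fold change -0.10), and 0 of 17 passed the test. This lean depended on which wells were kept. Without EV 1 the counts were 10 above and 7 below 0 (median 0.049), and without KLF2 1 they were 8 and 9 (median -0.025). Without both EV 1 and KLF2 3 they were 5 and 12 (median -0.11), close to those with all wells. The lowest unadjusted p was that of LDHB, the lactate dehydrogenase of oxidative tissues, on chromosome 1 from 67077550 to 67091183. LDHB had 7696, 6994 and 6819 normalized counts in KLF2 1 to 3, against 5400, 6834 and 6089 in EV 1 to 3. The 3 KLF2 wells were at or above 6819, and EV 2 at 6834 lay among them. LDHB averaged 7170 ± 464 in KLF2 libraries and 6108 ± 717 in EV libraries (SD, n = 3 each), a log2 fold change of 0.24 (95% interval -0.066 to 0.54, SE 0.14). limma gave it an unadjusted p of 0.116 (Benjamini-Hochberg adjusted p = 0.962). ENO1 had 101930, 82328 and 79841 normalized counts in KLF2 1 to 3, against 70872, 87496 and 75147 in EV 1 to 3. KLF2 1 held the highest value and EV 1 the lowest, with EV 2 above KLF2 2 and KLF2 3 (log2 fold change 0.17, 95% interval -0.14 to 0.49, SE 0.15).

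PFKFB3, the kinase-active form that raises the activating bisphosphate in proliferating cells, was the only 1 of 40 members whose groups did not overlap, beside 6.65% of all genes tested (3.39% with KLF2 wells higher and 3.26% with KLF2 wells lower). It lies on chromosome 1 from 4087559 to 4127133 and had 573, 609 and 617 normalized counts in KLF2 1 to 3, against 763, 633 and 682 in EV 1 to 3. Every KLF2 well was below every EV well, by little at the nearest pair of wells and more at EV 1. The log2 fold change was -0.20 (95% interval -0.54 to 0.13, SE 0.15), and limma gave an unadjusted p of 0.205 (Benjamini-Hochberg adjusted p = 0.962). Permuting the wells exactly, two-sided, gave p = 0.1, the smallest possible with 3 wells a group. Groups without overlap always give this value, so it adds nothing to the lack of overlap.

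Of the 8 hexokinases, phosphofructokinases and PFKFB enzymes 7 had fold changes below 0 with all wells and 4 without EV 1, and 0 passed the test. Without both EV 1 and KLF2 3, 6 were below 0. HK1 and HK2, the hexokinases that trap glucose as its phosphate, had log2 fold changes of -0.13 and -0.23. HK2 had 2111, 2184 and 3087 normalized counts in KLF2 1 to 3, against 4224, 2287 and 2400 in EV 1 to 3. EV 1 was the highest well and KLF2 3 came next, and the other 4 wells lay within 2111 and 2400. PFKP, PFKL and PFKM, the phosphofructokinases, had log2 fold changes of -0.081, -0.10 and -0.58. PFKM, the muscle form, had 14.2, 8.29 and 18.2 normalized counts in KLF2 1 to 3, against 21.7, 16.3 and 22.0 in EV 1 to 3, so the groups overlapped at KLF2 3 and EV 2. PFKP had 6329, 7414 and 7731 normalized counts in KLF2 1 to 3, against 7876, 7326 and 7443 in EV 1 to 3. PFKL had 477, 524 and 582 normalized counts in KLF2 1 to 3, against 799.7, 468 and 482 in EV 1 to 3. EV 1 was the highest well for both, by the wider margin in PFKL, and the other wells overlapped. PFKFB2 had 233, 173 and 165 normalized counts in KLF2 1 to 3, against 214, 145 and 164 in EV 1 to 3 (log2 fold change 0.13, 95% interval -0.38 to 0.64, SE 0.24). PFKFB4 had 728, 681 and 669 normalized counts in KLF2 1 to 3, against 770.1, 745 and 707 in EV 1 to 3 (log2 fold change -0.10, 95% interval -0.41 to 0.22, SE 0.15). For PFKFB2 the highest well was KLF2 1 and the lowest EV 2, and for PFKFB4 the highest was EV 1 and the lowest KLF2 3.

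Several enzymes of the middle and end of the pathway were high in the same pair of wells, 1 from each group. ALDOC, the aldolase of brain that was abundant here, on chromosome 19 from 6221502 to 6226444, had 5442, 7061 and 14938 normalized counts in KLF2 1 to 3, against 19977, 7729 and 8089 in EV 1 to 3. EV 1 and KLF2 3 were the high wells, and EV 1 was 3.67 times KLF2 1, the lowest. The log2 fold change was -0.37 (95% interval -1.74 to 1.00, SE 0.54). TPI1, triose phosphate isomerase, had 3262, 4412 and 7319 normalized counts in KLF2 1 to 3, against 6584, 4681 and 4792 in EV 1 to 3, and PGAM1 had 10148, 11224 and 16682 normalized counts in KLF2 1 to 3, against 17949, 11910 and 11247 in EV 1 to 3. For both enzymes KLF2 3 and EV 1 were again the highest wells and KLF2 1 the lowest, and the log2 fold changes were -0.16 and -0.11. GAPDH had 56054, 56286 and 84150 normalized counts in KLF2 1 to 3, against 74533, 65956 and 56954 in EV 1 to 3, a log2 fold change of -0.026 (95% interval -0.40 to 0.35, SE 0.18). LDHA had 55899, 67266 and 86618 normalized counts in KLF2 1 to 3, against 74627, 71900 and 70720 in EV 1 to 3, a log2 fold change of -0.073 (95% interval -0.42 to 0.27, SE 0.16). KLF2 3 was the highest and KLF2 1 the lowest well of both. GPI, which makes fructose phosphate, ran the other way between wells with 18417, 17977 and 16200 normalized counts in KLF2 1 to 3, against 15105, 17202 and 16639 in EV 1 to 3 (log2 fold change 0.10, 95% interval -0.18 to 0.39, SE 0.13): EV 1 was its lowest well and KLF2 1 its highest.

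Isoform choice was described by the share of each isoform in the summed length-scaled level of its family, a quantity that does not depend on the scaling between libraries. No test was made on shares, which are given as means ± SD over the 3 wells of each group or by well. LDHA held most of the lactate dehydrogenase level, and LDHB made up 18.9, 15.0 and 11.8% in KLF2 1 to 3, against 10.9, 13.9 and 12.7% in EV 1 to 3. KLF2 1 was highest and EV 1 lowest, while KLF2 3 lay below EV 2 and EV 3. The mean LDHB share was 15.2 ± 3.58% in KLF2 libraries and 12.5 ± 1.49% in EV libraries (SD, n = 3 each). The difference of 2.71 percentage points rested on KLF2 1, without which it was 0.865.

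Of the PFKFB level, PFKFB3 made up 38.6, 43.1 and 44.1% in KLF2 1 to 3, against 45.1, 43.3 and 45.5% in EV 1 to 3, and PFKFB4 43.1 ± 0.573% in KLF2 libraries and 42.7 ± 2.50% in EV libraries. The PFKFB3 share overlapped between groups at KLF2 3 and EV 2, and KLF2 1 held the low value. The difference of -2.73 percentage points was -1.06 without KLF2 1. PFKFB2, the form of heart and kidney in mammals, had a mean share of 15.0 ± 2.39% in KLF2 libraries and 12.7 ± 1.56% in EV libraries. ENO2, at 517, 425 and 483 normalized counts in KLF2 1 to 3, against 545, 499 and 504 in EV 1 to 3, was a small part of the enolase level, and made up 0.854, 0.869 and 1.02% in KLF2 1 to 3, against 1.29, 0.960 and 1.13% in EV 1 to 3. The mean ENO2 share was 0.914 ± 0.0909% in KLF2 libraries and 1.13 ± 0.165% in EV libraries (SD, n = 3 each), and the groups overlapped at KLF2 3 and EV 2. PFKP, the platelet type phosphofructokinase, made up 88.4 ± 0.459% in KLF2 libraries and 88.0 ± 2.83% in EV libraries, PFKL, the liver type, 11.3 ± 0.355% in KLF2 libraries and 11.6 ± 2.83% in EV libraries, and PFKM 0.296 ± 0.105% in KLF2 libraries and 0.409 ± 0.0567% in EV libraries.

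Of the level of HK1 and HK2 together, HK2 made up 39.8 ± 3.93% in KLF2 libraries and 41.5 ± 4.06% in EV libraries. KLF2 3 at 44.1% and EV 1 at 46.1% had the highest HK2 shares. With the 2 unnamed rows counted as ALDOA, a choice made after seeing the data, ALDOC made up 95.2 ± 1.28% of aldolase in KLF2 libraries and 94.4 ± 0.927% in EV libraries (SD, n = 3 each). Of the level of IDH1 and IDH2 together IDH2, the mitochondrial NADP-dependent form, made up 10.2, 13.9 and 22.1% in KLF2 1 to 3, against 26.2, 13.1 and 14.1% in EV 1 to 3. KLF2 3 and EV 1 were the high wells, and the groups overlapped. Of malate dehydrogenase the mitochondrial MDH2 made up 39.7 ± 2.21% in KLF2 libraries and 40.6 ± 1.06% in EV libraries. Of the PDK1 and PDK3 level PDK3 made up 29.9 ± 0.705% in KLF2 libraries and 30.3 ± 2.37% in EV libraries. SUCLG2, the GTP-linked beta subunit of succinate-CoA ligase, shares its role with the ATP-linked SUCLA2 and made up 45.6 ± 0.827% in KLF2 libraries and 45.7 ± 1.36% in EV libraries. In all 9 families of matched isoforms, the groups overlapped.

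**Figure D3:**
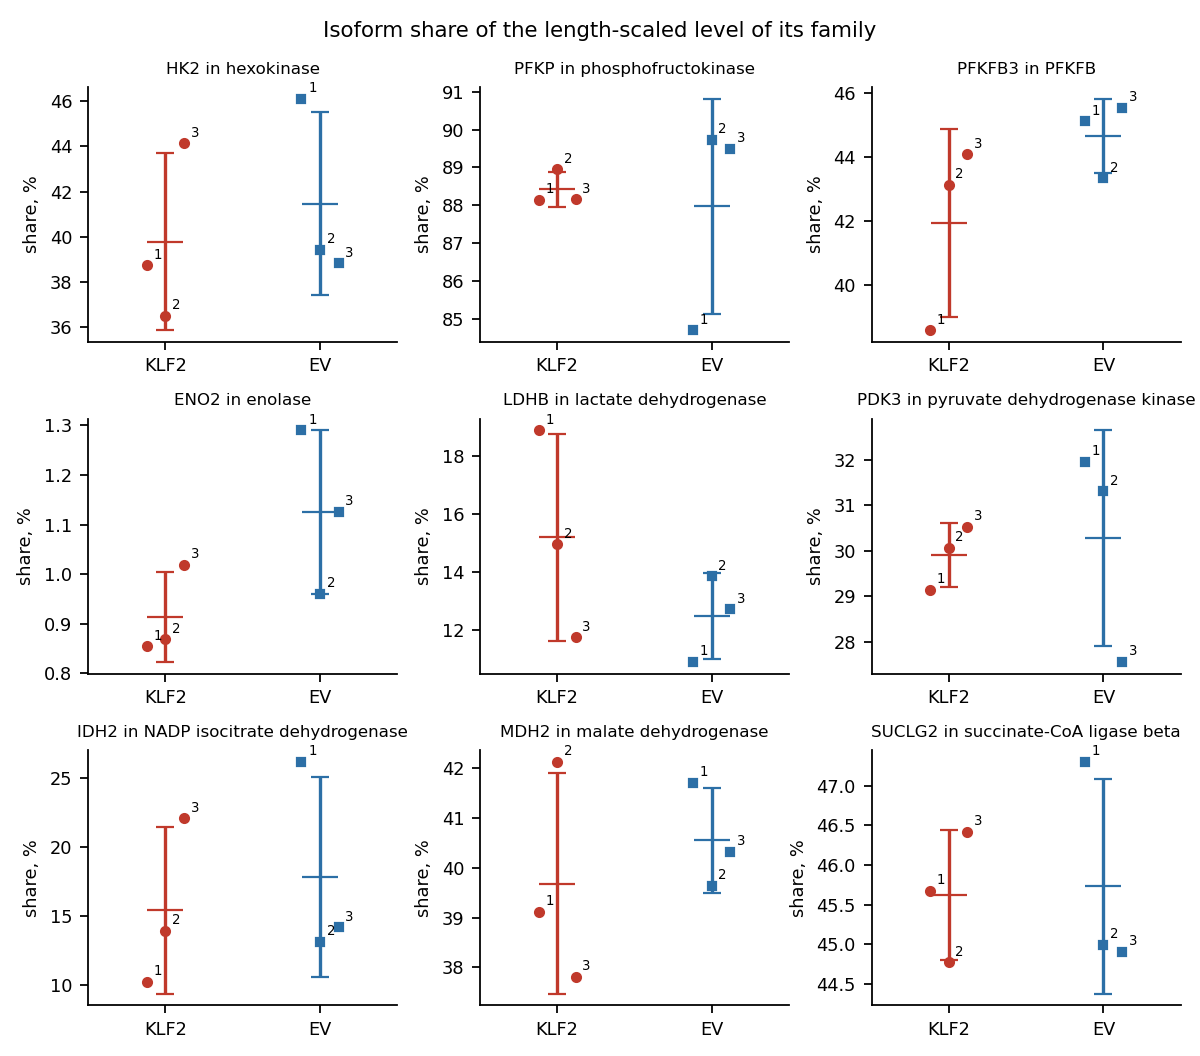
Share of an isoform, in percent of the summed normalized count per kb of its family, in KLF2 wells (left) and EV wells (right), with the well number beside each point and the mean ± SD as bars. The axes do not start at 0. Groups overlap in each of the 9 panels, and KLF2 1 holds the highest LDHB share and the lowest PFKFB3 share.

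In pyruvate entry and the citrate cycle the fold change was above 0 for 12 members and below 0 for 7 (median log2 fold change 0.086), and 0 of 19 passed the test. Without EV 1 the counts were 16 and 3 (median 0.061), and without both EV 1 and KLF2 3 they were 11 and 8 (median 0.087). The lowest unadjusted p was that of PDHB, the E1 beta subunit of the pyruvate dehydrogenase complex, on chromosome 12 from 12008807 to 12013228. PDHB had 2768, 2471 and 2161 normalized counts in KLF2 1 to 3, against 2005, 2423 and 2030 in EV 1 to 3. KLF2 1 and KLF2 2 were the highest wells, but EV 2 lay above KLF2 3, and the log2 fold change was 0.19 (95% interval -0.13 to 0.52, SE 0.15), with 0.214 as the unadjusted p in limma. DLAT and DLD, the E2 and E3 components, had log2 fold changes of 0.10 and -0.014. PDK1 and PDK3, kinases that switch the complex off, had log2 fold changes of 0.17 and 0.15. PDK1 had 1786, 1615 and 1300 normalized counts in KLF2 1 to 3, against 1119, 1608 and 1448 in EV 1 to 3, with KLF2 1 highest and EV 1 lowest.

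Of the cycle enzymes, CS, which condenses acetyl-CoA with oxaloacetate, had 832, 889 and 1049 normalized counts in KLF2 1 to 3, against 1523, 886 and 845 in EV 1 to 3. EV 1 stood above all other wells, and the rest of the EV wells lay with KLF2 1 and KLF2 2 (log2 fold change -0.19, 95% interval -0.65 to 0.28, SE 0.22). The NAD-dependent isocitrate dehydrogenase subunits split by sign. IDH3A, the catalytic subunit, had 1349, 1499 and 1282 normalized counts in KLF2 1 to 3, against 1179, 1324 and 1237 in EV 1 to 3 (log2 fold change 0.14, 95% interval -0.16 to 0.44, SE 0.14). IDH3B had 624, 689.8 and 909 normalized counts in KLF2 1 to 3, against 1193, 716 and 723 in EV 1 to 3 (log2 fold change -0.22, 95% interval -0.69 to 0.25, SE 0.22). IDH3A was lowest in EV 1 and highest in KLF2 2, while IDH3B was highest in EV 1 and lowest in KLF2 1. IDH2 had 535, 718 and 1268 normalized counts in KLF2 1 to 3, against 1337, 739 and 709.9 in EV 1 to 3, a log2 fold change of -0.18 (95% interval -1.03 to 0.68, SE 0.36). IDH1 had 10112, 9535 and 9617 normalized counts in KLF2 1 to 3, against 8099, 10536 and 9258 in EV 1 to 3, a log2 fold change of 0.077 (95% interval -0.22 to 0.38, SE 0.14). KLF2 3 and EV 1 were the high wells of IDH2, and EV 1 was the lowest of IDH1.

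OGDH and DLST, the E1 and E2 components of the oxoglutarate dehydrogenase complex, had log2 fold changes of -0.22 and -0.085. OGDH had 2561, 3479 and 4608 normalized counts in KLF2 1 to 3, against 5323, 3289 and 3675 in EV 1 to 3, again with EV 1 and KLF2 3 highest. The succinate-CoA ligase subunits SUCLG1, SUCLG2 and SUCLA2 had log2 fold changes of 0.18, 0.13 and 0.13. SUCLG1, the alpha subunit on chromosome 4 from 85830862 to 85846370, had 2248, 1777 and 1538 normalized counts in KLF2 1 to 3, against 1480, 1768 and 1606 in EV 1 to 3. KLF2 1 was the highest well, and KLF2 3 and EV 1 the lowest (log2 fold change 0.18, 95% interval -0.17 to 0.54, SE 0.16). FH, fumarase, and MDH2 had log2 fold changes of -0.043 and 0.086. MDH1 had 5401, 5059 and 5531 normalized counts in KLF2 1 to 3, against 4436, 5292 and 4825 in EV 1 to 3. KLF2 2 lay below EV 2, so the groups overlapped (log2 fold change 0.14, 95% interval -0.15 to 0.43, SE 0.13). PCK2, the mitochondrial enzyme that makes phosphoenolpyruvate from oxaloacetate, had a log2 fold change of 0.027.

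Of the pentose phosphate members the fold change was above 0 for 2 and below 0 for 2 (median log2 fold change 0.0056), and 0 of 4 passed the test. PGLS, on chromosome 30 from 697684 to 701086, had 482, 530.3 and 623 normalized counts in KLF2 1 to 3, against 828, 662 and 510.2 in EV 1 to 3. EV 1 and EV 2 were the highest wells and EV 3 lay below KLF2 2 and KLF2 3 (log2 fold change -0.27, 95% interval -0.69 to 0.15, SE 0.20). RPIA had 1316, 1187 and 1320 normalized counts in KLF2 1 to 3, against 1151, 1276 and 1081 in EV 1 to 3, with KLF2 1 and KLF2 3 highest and EV 2 above KLF2 2 (log2 fold change 0.13, 95% interval -0.18 to 0.43, SE 0.14). TALDO1 had 2813, 2585 and 2961 normalized counts in KLF2 1 to 3, against 2803, 2824 and 2422 in EV 1 to 3 (log2 fold change 0.056, 95% interval -0.24 to 0.35, SE 0.14). PGD, on chromosome 21 from 3715698 to 3726183, had 4815, 4945 and 5950 normalized counts in KLF2 1 to 3, against 5639, 5507 and 5003 in EV 1 to 3 (log2 fold change -0.044, 95% interval -0.35 to 0.26, SE 0.14). KLF2 3 was the highest well of both, and the groups overlapped. Across the 4 enzymes the lowest and the highest well differed by 1.22 to 1.72 times.

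Each member's deviation from its mean over the 6 libraries was taken on the log2(normalized count + 1) scale. The median deviation of the glycolytic members was -0.19, -0.071 and 0.076 in KLF2 1 to 3, against 0.25, -0.0019 and -0.06 in EV 1 to 3. For the citrate cycle group it was 0.089, 0.0062 and -0.016 in KLF2 1 to 3, against -0.11, 0.031 and -0.08 in EV 1 to 3. EV 1 had the highest median in glycolysis and the lowest in the citrate cycle group. Over all genes tested the medians ran from -0.0089 to 0.0090, which does not measure the scatter of a short list. Among other lists, 18 further glycolysis genes reached 0.24 in KLF2 1 and 14 regulators 0.14 in EV 1. The medians of 22 further citrate cycle genes lay within -0.036 and 0.052. EV 1 was the highest well for 3069 and the lowest for 3059 of the 10893 genes averaging 20 or more normalized counts. The citrate cycle group was split: EV 1 was the highest well for 5 of its 19 members and the lowest for 10. Its 5 pyruvate dehydrogenase and PDK members had medians of 0.22, 0.11 and -0.10 in KLF2 1 to 3, against -0.19, 0.079 and -0.085 in EV 1 to 3. Its 11 mitochondrial cycle enzymes had medians of -0.066, 0.0036 and 0.0013 in KLF2 1 to 3, against -0.10, 0.018 and -0.08 in EV 1 to 3. The summed level of these 11 was nevertheless highest in EV 1, at 6757 normalized counts per kb, and lowest in KLF2 1, at 5410. The pentose phosphate members had medians of -0.047, -0.088 and 0.12 in KLF2 1 to 3, against 0.065, 0.062 and -0.17 in EV 1 to 3.

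Of the 40 members, 15 had their highest value in EV 1 and 13 in KLF2 1, and 15 had their lowest in KLF2 1 and 13 in EV 1. Of the 10893 genes averaging 20 or more normalized counts, 3069 had their highest value in EV 1 and 3098 in KLF2 1. Among these genes 3255 had their lowest in KLF2 1 and 3059 in EV 1. KLF2 3 and EV 1 were the 2 highest wells for 15 of 40 members and the 2 lowest for 5, beside 25.6% and 26.4% of the genes averaging 20 or more normalized counts. The 15 were HK1, HK2, PFKL, PFKP, ALDOC, TPI1, GAPDH, PGAM1 and LDHA of glycolysis, CS, IDH2, IDH3B, OGDH and DLST of the citrate cycle, and PGD. The 5 were GPI, PDK1, SUCLA2, SUCLG1 and FH. The ribosomal RNA share was highest in the same wells, at 0.131% and 0.350% of reads, and its part in these values was not tested. The highest value exceeded the lowest by a median of 1.40 times in the members and 1.53 times in genes averaging 20 or more.

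**Figure D4:**
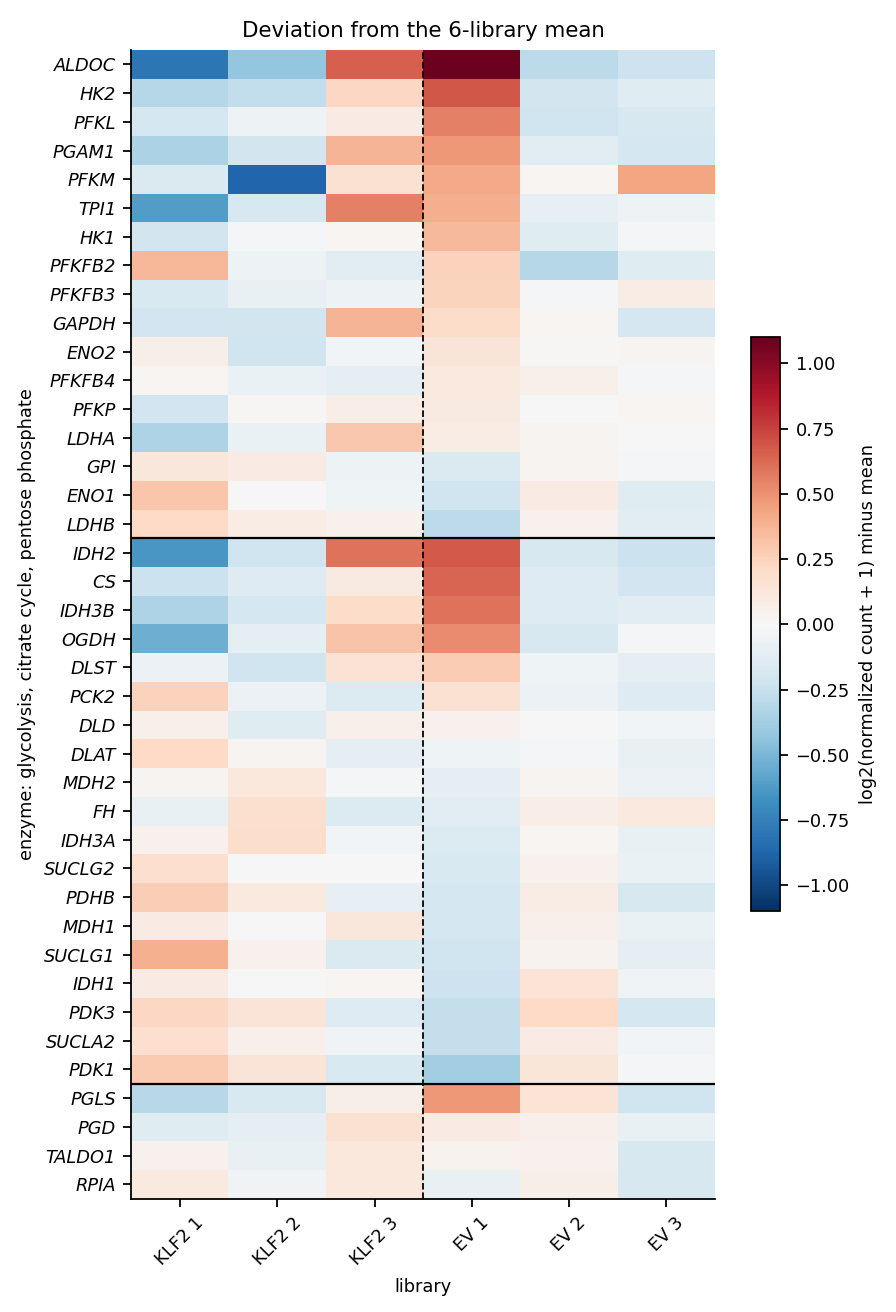
Deviation of each enzyme transcript from its mean over the 6 libraries, on the log2(normalized count + 1) scale, with KLF2 libraries left of the dashed line and EV libraries right of it, and enzymes sorted by their EV 1 value within each pathway. By this sort the EV 1 column runs from above the mean to below it within each pathway. The KLF2 1 column runs mostly the other way, which is partly built in, because the deviations of a row balance out.

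**Figure D5:**
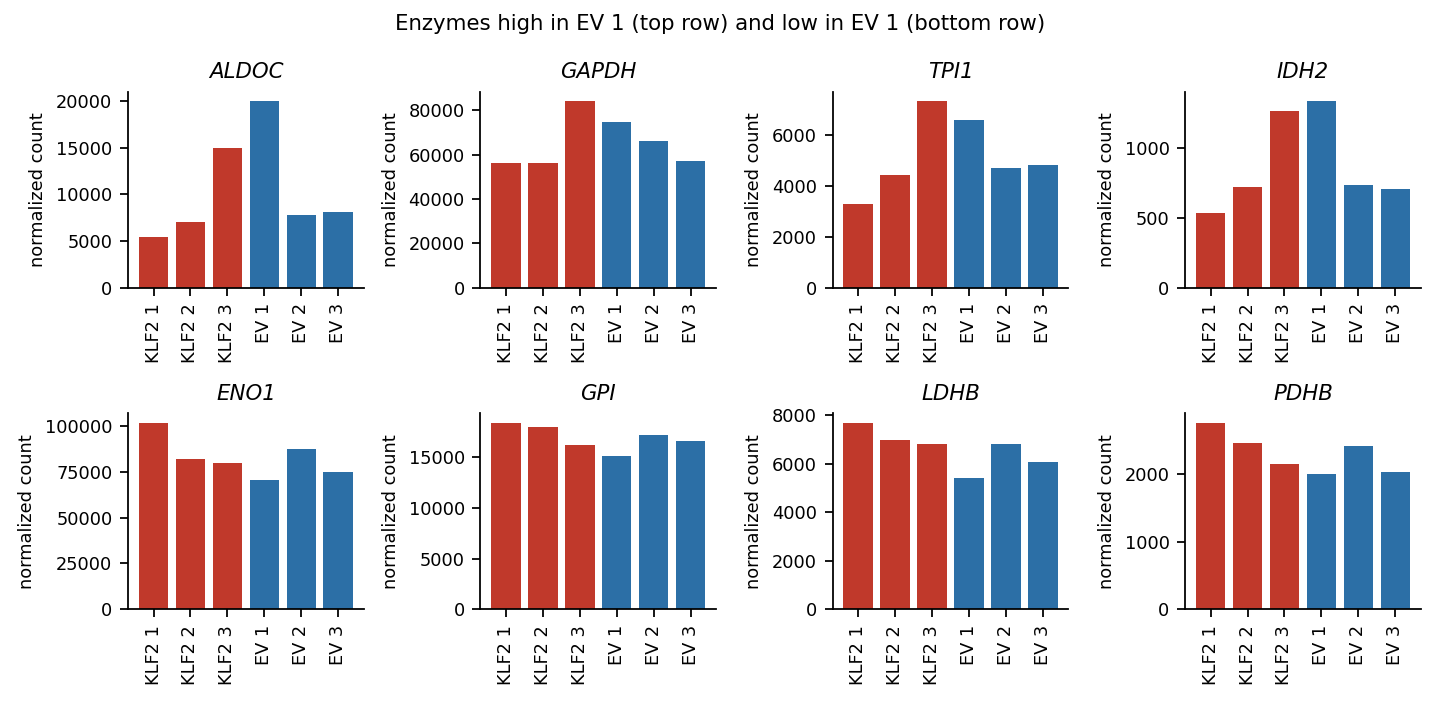
Normalized count of 8 enzyme transcripts, picked after their values were seen, in the 3 KLF2 (left) and 3 EV (right) libraries, as bars from 0. ALDOC, GAPDH, TPI1 and IDH2 are high in KLF2 3 and EV 1, and ENO1, GPI, LDHB and PDHB are lowest in EV 1.

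The members lay on 19 chromosomes, 16 of 40 on microchromosomes (chromosomes 11 to 28 and 30 to 38), beside 32.8% of the genes tested. The 16 had a median log2 fold change of -0.0084 and the other 24 of -0.034, beside -0.072 on microchromosomes and 0.028 elsewhere for genes averaging 20 or more normalized counts. By start and end, 16 of 40 members overlapped another gene of the table, among them LDHA with UEVLD, PGAM1 with RRP12, FH with SDHA, MDH1 with WDPCP, PDHB with KCTD6 and PGD with CENPS. These are overlaps of whole gene spans, and shared exons were not examined. FH and SDHA lie on the same strand. No step that marks strand is described, so reads in a stretch shared by exons could belong to either gene.

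The other genes of these pathways also gave 0 calls, and those named here were chosen for display after their values were seen. Of 30 further listed names of glycolysis and its branches, 18 were in the table. Their fold changes were above 0 for 12 and below 0 for 6. Of these 18, 0 had an unadjusted p under 0.05, beside 2.11% of all genes tested. HK3, a further hexokinase, had at most 12.4 normalized counts. PGM1, phosphoglucomutase, which links glycogen to glycolysis, had 1912, 1468 and 1496 normalized counts in KLF2 1 to 3, against 1432, 1591 and 1499 in EV 1 to 3. These levels overlapped between groups. Of 27 names of pyruvate entry and the citrate cycle, 22 were in the table, 11 above and 11 below 0. At an unadjusted p under 0.05 there were 0, beside the same 2.11%. SDHA, SDHB, SDHC and SDHD, the subunits of succinate dehydrogenase shared with the respiratory chain, had log2 fold changes of 0.026, -0.08, -0.24 and 0.10. MPC2, a subunit of the mitochondrial pyruvate carrier, had 823, 761 and 719 normalized counts in KLF2 1 to 3, against 622, 732 and 609 in EV 1 to 3 (log2 fold change 0.23, 95% interval -0.10 to 0.57, SE 0.15). Of 10 pentose phosphate names 5 were in the table, with 0 at an unadjusted p under 0.05, beside the same 2.11%. In lists this short a count of 0 cannot be told apart from that share.

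Regulators and oxygen-responsive genes were counted beside the enzymes. Of 20 regulators 14 were in the table, 6 with fold changes above 0 and 8 below. At an unadjusted p under 0.05 there were 0, beside 2.11% of all genes tested. The groups did not overlap for 1 of the 14, beside 6.65% of all genes tested. HIF1A, the oxygen-sensitive factor that induces many glycolytic genes, had 32207, 33011 and 22707 normalized counts in KLF2 1 to 3, against 22247, 30248 and 30325 in EV 1 to 3. KLF2 3 and EV 1 were its lowest wells, as they were for 26.4% of the genes averaging 20 or more normalized counts. They were the 2 highest of 9 of 17 glycolytic members, beside 25.6% of those genes. ARNT, another listed regulator, was highest in these wells, with 1296, 1412 and 2041 normalized counts in KLF2 1 to 3, against 2003, 1526 and 1558 in EV 1 to 3. A link between regulator and enzyme levels was not tested. MYC had 311, 617 and 744 normalized counts in KLF2 1 to 3, against 663, 547 and 617 in EV 1 to 3, lowest in KLF2 1. NRF1, a factor for nuclear genes of mitochondria, had 156, 168 and 150.0 normalized counts in KLF2 1 to 3, against 193, 198 and 181 in EV 1 to 3, without overlap between groups (log2 fold change -0.27, 95% interval -0.71 to 0.17, SE 0.20, unadjusted p = 0.209). Of the hypoxia-induced genes outside these pathways 16 rows were tested, 9 above and 7 below 0. At an unadjusted p under 0.05 there were 0, beside the same 2.11%. The groups did not overlap for 1 of the 16, beside the same 6.65%. MXI1, a MYC antagonist, lay lower in every KLF2 well than in any EV well, with 594, 670.1 and 741 normalized counts in KLF2 1 to 3, against 783, 827 and 890.5 in EV 1 to 3 (log2 fold change -0.32, 95% interval -0.65 to 0.012, SE 0.15, unadjusted p = 0.0573, Benjamini-Hochberg adjusted p = 0.962 in limma).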

How the data were processed

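The submitters' processing notes name fastp, HISAT2 2.0.5, StringTie 1.3.3b, featureCounts 1.5.0-p3 and the build GRCg7b. The authors deposited 1 table with a normalized count, a signal, for each gene in each library. Every such value (100% of values, tolerance 1e-06) is a whole multiple of what 1 read is worth in its library, so the reads could be recovered. The authors' deposited table also holds log2 fold changes, p-values and adjusted p-values, and the program that made them is not stated. DESeq2 on the recovered reads gave nearly the same values. The log2 fold changes were 1.0439 for KLF2 and -0.1466 for HK1 in both, and 173 genes had an unadjusted p under 0.05 in both.

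limma 3.58.1 in R 4.3.3 (trend and robust) was fitted to log2(normalized count + 1), KLF2 against EV, over the 16765 genes whose average reached 1 in at least 1 group. Tests were two-sided, Benjamini-Hochberg adjustment ran over all these genes, and 0.05 was the threshold. Fold changes on that scale understate changes of low genes. All 40 members passed the filter on low values. edgeR 4.0.16 (11860 genes) and DESeq2 1.42.0 (18492 genes with a p) served as alternatives on these reads. Levels between genes are normalized counts per kb of the table's gene length, computed with Python 3.11.15 and pandas 2.3.3. The fit was also run on simulated counts, drawn for each gene separately. They lack the spread that genes of a well share, so that run does not show how the fit behaves with it.

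Members, lists and alternatives were chosen with earlier results of these data known. Values in every library are given for the 4 lowest unadjusted p-values and the highest level per pathway, for members whose groups did not overlap and for the 4 isoform families with the largest shift in share. Further members and genes outside the list were chosen for display after their values were seen. Some genes of the pathways are not reported here. No protein or promoter sequence was used here.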

Additional observations from a re-analysis of the deposited data

How the results depend on the processing

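The count of 0 members called held under each of the 18 alternatives, including leaving out each library, a score of each library (the median deviation of microchromosome genes minus that of macrochromosome genes) as a covariate, removal of the gene length trend and the rows listed under another name, an alternative added after seeing the data. Over all genes 0 were called, except 2 with the score and 4 without EV 1 and KLF2 3; the cause was not tested. KLF2 passed in these settings, with log2 fold changes of 1.31 and 0.93, and its adjusted p ran from 8.23e-08 to 1.00 over the alternatives. Without EV 1 and KLF2 3, 5 of 40 members had an unadjusted p under 0.05 (ALDOC, TPI1 and LDHA lower, PDHB and SUCLG1 higher), beside 10.0% of all genes, and without KLF2 3 alone 2 of 40 had, beside 12.2%. With the replicate number as a block 0 members and 0 genes were called. Libraries sharing a number had residuals correlated at -0.600, 0.144 and -0.511. These values cannot show whether a number marks a shared day or batch, which the labels do not say. The difference in share between the groups was recomputed for each isoform without each library and without EV 1 and KLF2 3. It was also recomputed with no division by gene length. Each time it moved by less than the pooled SD of the share between wells. With 3 wells a group, leaving out 1 library cannot move it by more than that SD. Those settings therefore do not show that the shares are stable.

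Signs of small differences turned. With the score the fold change was above 0 for 32 of 40 members, 11 of 17 in glycolysis and 18 of 19 in the citrate cycle group. The members' median was 0.040, beside 0.00074 over all genes. The score was computed from these same libraries, at -0.187, -0.122 and 0.144 in KLF2 1 to 3, against 0.279, -0.0371 and -0.0486 in EV 1 to 3. With the length trend removed the fold change was above 0 for 21 of 40 (median 0.025, beside 0.017 over all genes). With the score the log2 fold changes were HK2 0.029, PFKL 0.087, ALDOC 0.13, TPI1 0.12, GAPDH 0.14, PGAM1 0.13, LDHA 0.038, DLD 0.0099, CS 0.031, IDH2 0.20, IDH3B 0.013, OGDH 0.031, DLST 0.035 and PGD 0.030. With the length trend removed they were GAPDH 0.053, DLD 0.033 and FH 0.017, under quantile normalization GAPDH 0, and without EV 1 and KLF2 3 PFKL 0.074 and IDH1 -0.0083. Leaving out each library in turn gave, as ranges of the log2 fold change, -0.23 to 0.011 in HK1, -0.41 to 0.049 in HK2, -0.24 to 0.15 in PFKL, -0.14 to 0.0050 in PFKP, -0.025 to 0.28 in PFKFB2, -0.80 to 0.072 in ALDOC, -0.48 to 0.10 in TPI1, -0.22 to 0.073 in GAPDH, -0.33 to 0.10 in PGAM1, -0.24 to 0.076 in LDHA, -0.047 to 0.051 in DLD, -0.34 to 0.087 in CS, -0.018 to 0.17 in IDH1, -0.52 to 0.12 in IDH2, -0.38 to 0.023 in IDH3B, -0.18 to 0.032 in DLST, -0.14 to 0.023 in FH, -0.092 to 0.12 in PCK2, -0.14 to 0.013 in PGD and -0.016 to 0.11 in TALDO1. Leaving out EV 1 turned 12 members and leaving out KLF2 1 turned 9. Low counts limit PFKM, and the spread between wells limits ALDOC and IDH2.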
